A study of Rattus norvegicus with 9 samples.

Results

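The genes of cholesterol synthesis, sterol sensing, storage and efflux were followed in rat liver. They were taken by name: every probe set (a group of oligonucleotides on the array that reads 1 transcript) whose platform gene symbol was among 31 listed symbols. Of these, 26 genes had a probe set, and Hmgcs1, Stard4, Npc1, Soat2 and Abca1 were not analysed here. The 26 genes had 37 probe sets among the 15923 on the array, and 34 of these were bright enough to test, among 13535 tested in all.

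Total RNA from whole liver was read on 9 one-colour arrays, 3 in each of the groups Burn-CLP, Sham-CLP and Sham-Sham. By their names, Burn-CLP livers came after a burn and CLP, Sham-CLP livers after a sham procedure and CLP, and Sham-Sham livers, labelled as controls, after a pair of sham procedures. CLP is not spelled out in the labels; in rodent work it commonly stands for cecal ligation and puncture, a model of abdominal infection. Strain, age and the times between procedures and collection are not stated in the labels. Whether the 3 arrays of 1 group are 3 animals is not stated either, so p-values cover the spread among these arrays alone, and that spread could be technical.

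Liver cells make cholesterol from acetyl-CoA through the mevalonate pathway, which first builds isoprenoid units, joins them to squalene, and then closes and trims the ring to give cholesterol. When sterol in the endoplasmic reticulum is low, the escort protein SCAP carries the transcription factor SREBP-2 (Srebf2) to the Golgi, where it is cut and released to switch on these genes, and when sterol is high the INSIG proteins hold SCAP back. Surplus cholesterol is stored as ester or leaves the cell through transporters, among them the ABCG5/ABCG8 pair that moves sterols into bile.

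The promoters of the 4 synthesis genes with the smallest p over the 3 groups among those with an entry in the RefSeq promoter table (GRCr8) are shown because these genes carry the clearest differences below. Each line holds the 250 bases before the annotated start, 5′ to 3′ on the strand of the gene, and the capitals mark CCAAT or its reverse complement ATTGG, the box read by the factor NF-Y, a known partner of SREBP-2. Ebp lies at chrX:16971212-16971461 on the plus strand, Tm7sf2 at chr1:212789542-212789791 on the minus strand, Lss at chr20:12118231-12118480 on the minus strand, and Nsdhl at chrX:155817110-155817359 on the plus strand.
Ebp: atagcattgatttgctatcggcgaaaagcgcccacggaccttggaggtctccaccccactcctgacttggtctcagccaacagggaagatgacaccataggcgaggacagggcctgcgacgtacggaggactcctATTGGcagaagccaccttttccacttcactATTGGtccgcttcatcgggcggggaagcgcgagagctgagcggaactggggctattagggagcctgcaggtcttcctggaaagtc
Tm7sf2: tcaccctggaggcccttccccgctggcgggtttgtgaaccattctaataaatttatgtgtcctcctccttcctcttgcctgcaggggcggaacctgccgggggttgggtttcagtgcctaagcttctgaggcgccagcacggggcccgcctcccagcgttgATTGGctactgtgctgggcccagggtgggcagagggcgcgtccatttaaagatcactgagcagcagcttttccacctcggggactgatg
Lss: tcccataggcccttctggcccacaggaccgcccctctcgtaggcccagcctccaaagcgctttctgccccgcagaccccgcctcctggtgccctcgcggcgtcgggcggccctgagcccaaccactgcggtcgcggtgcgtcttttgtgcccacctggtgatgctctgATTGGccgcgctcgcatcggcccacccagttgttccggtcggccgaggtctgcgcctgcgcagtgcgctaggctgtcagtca
Nsdhl: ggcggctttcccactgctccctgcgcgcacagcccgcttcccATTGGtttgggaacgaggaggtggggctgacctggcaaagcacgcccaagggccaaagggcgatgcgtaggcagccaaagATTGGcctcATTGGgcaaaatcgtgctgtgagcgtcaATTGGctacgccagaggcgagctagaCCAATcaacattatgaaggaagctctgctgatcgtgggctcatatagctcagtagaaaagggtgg

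The capitals show 2 boxes in Ebp, 1 in Tm7sf2, 1 in Lss and 5 in Nsdhl. The table held 22 of the 26 genes, and motifs were searched on both strands from 250 bases before to 50 after the start, each motif counted whether or not it overlapped another. CCAAT was present in 18 of the 22 promoters, and in 11 of the 14 synthesis genes, against 37.5% of all 33469 promoters. The Sp1 box GGGCGG was present in 16 of the 22, against 33.1% of all promoters. The sterol regulatory element spelled TCACNCCAC was found in 0 of the 22 and in 1.12% of all promoters, which says only that these letters are not in these windows. These are matches of letters and not binding sites.

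The number of arrays sets the precision here, since an array has no depth of reads. After quantile normalization the 9339 tested genes had geometric mean signals between 380 and 384 on all 9 arrays. Sham-Sham 1 had the lowest mean correlation with the other 8 arrays, 0.8897, while the others lay between 0.9217 and 0.9485. Sham-Sham 3 correlated on average at 0.9591 with the Sham-CLP arrays and at 0.9226 with its own group. Sham-Sham 2, at 0.9428 and 0.9358, and Burn-CLP 3, at 0.9619 and 0.951, also correlated more with Sham-CLP than with their own group, by a smaller margin. Over the 17 synthesis genes the geometric mean signals were 1522, 1119 and 1861 in Burn-CLP, 3089, 3051 and 2626 in Sham-CLP, and 950, 810 and 1989 in Sham-Sham. Sham-Sham 3 therefore read about as high as Burn-CLP 3 for this pathway. Differences from Sham-Sham are also given without it for the counts, the medians and several single genes. The array was singled out by its signals for these same genes, so larger differences and smaller p-values without it are no separate evidence. In whole liver, fewer cells of a type and less RNA per cell cannot be told apart.

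The synthesis genes were highest in Sham-CLP. The Sham-CLP mean was the highest of the 3 groups for 17 of 17 synthesis genes. The Burn-CLP mean lay between the other two for 13 of them and below Sham-Sham for 4, which were Pmvk, Tm7sf2, Nsdhl and Dhcr7. For 15 of the 17 genes the Burn-CLP mean was closer to Sham-Sham than to Sham-CLP, but for 9 of the 17 without Sham-Sham 3. The count below Sham-Sham was 3 without Sham-Sham 3, 5 without Sham-Sham 1 and 7 without Sham-Sham 2, while Sham-CLP was highest for 17 of 17 in each case. The shares of all genes with these orders of the group means were not computed, so the counts describe the synthesis genes alone. With all 9 arrays, the differences between groups were mostly not called one gene at a time. limma with Benjamini-Hochberg adjustment over 13535 probe sets called 0 of the 34 member probe sets at an adjusted p under 0.05 in each pair of groups and 0 in the F test over the 3 groups. The shares of all probe sets called were 0.0591% for Sham-CLP against Sham-Sham, 0.746% for Burn-CLP against Sham-Sham, 0.0148% for Burn-CLP against Sham-CLP and 0.148% for the F test. In both CLP groups together against Sham-Sham, 1 member, Ebp, was called higher, against 0.355% of all probe sets called in either direction. The unadjusted p was under 0.05 in that comparison for 16 member probe sets in the higher direction and 2 in the lower, against 9.31% and 9.09% of all probe sets, and in the F test for 23, against 16%.

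**Figure D1:**
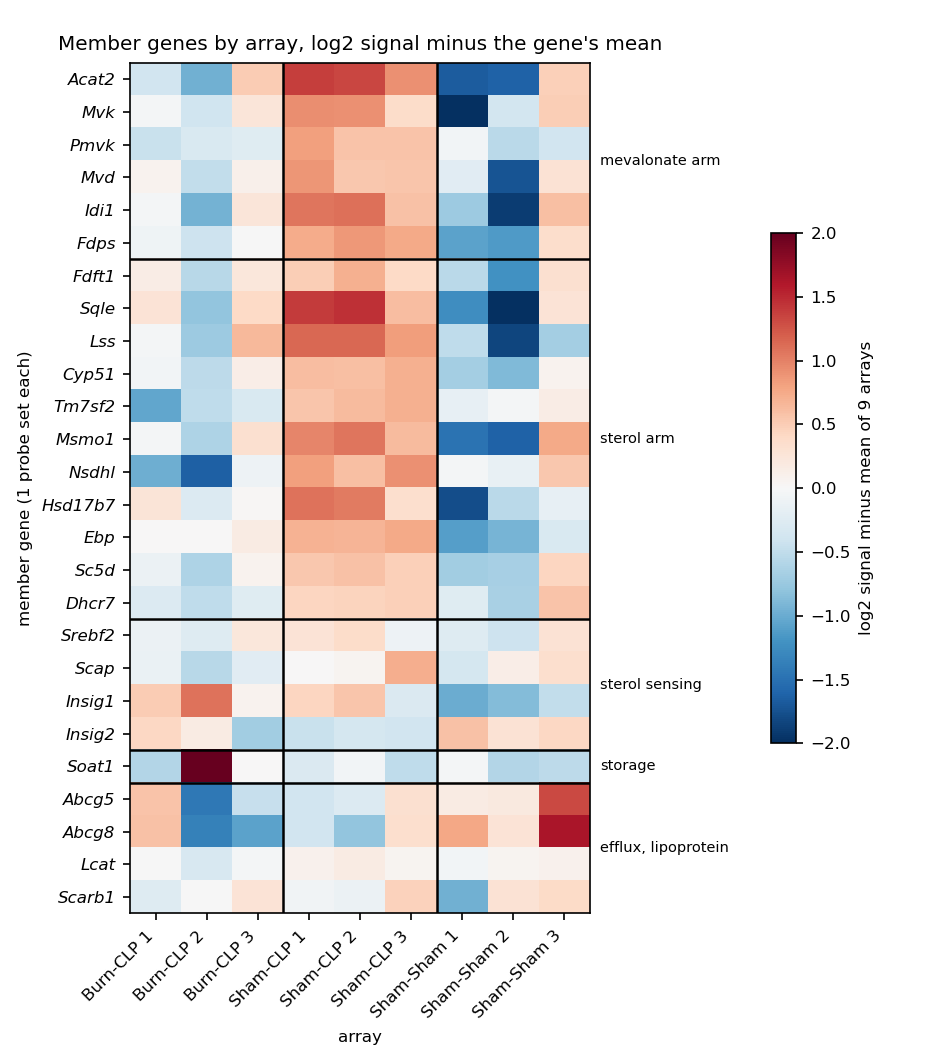
Log2 signal of each of the 26 genes (rows) in each of the 9 arrays (columns, Burn-CLP, Sham-CLP and Sham-Sham from left to right), minus the mean of the gene over the 9 arrays, with the colour scale ending at -2 and 2. The Sham-CLP columns are above the gene mean for the synthesis genes, and Sham-Sham 3 is higher than Sham-Sham 1 and Sham-Sham 2 for most of them.

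In Sham-CLP against Sham-Sham, the unadjusted limma p was under 0.05 for 22 of 34 member probe sets in the higher direction and for 1 in the lower, while 5.83% and 5.9% of all probe sets were that far in each direction. The median log2 difference was 0.99 over the 26 genes and 1.41 over the 17 synthesis genes, against 0.00 over all 9339 genes. All 3 Sham-CLP arrays lay above all 3 Sham-Sham arrays for 20 of 34 probe sets, against 8.1% of all probe sets, and for 13 of the 17 synthesis genes. They lay below for 1, Insig2, against 8.65%. In Burn-CLP against Sham-CLP, the unadjusted p was under 0.05 for 15 member probe sets in the lower direction and 0 in the higher, against 5.19% and 3.9% of all probe sets. All 3 Burn-CLP arrays lay below all 3 Sham-CLP arrays for 25 of 34 probe sets, against 9.22% of all probe sets, and for 17 of 17 synthesis genes, whose median difference was -0.96. They lay above for 0 probe sets, against 9.61%. Burn-CLP and Sham-Sham differed less. The unadjusted p was under 0.05 for 4 member probe sets in the higher and 3 in the lower direction, against 10% and 9.85% of all probe sets, and the synthesis median was 0.45. All 3 Burn-CLP arrays lay above all Sham-Sham arrays for 2 probe sets, of Ebp and Insig1, against 11% of all probe sets, and below for 1, of Tm7sf2, against 10.5%.

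The 3 comparisons share arrays: a high Sham-CLP group raises the first difference and lowers the second. Sham-CLP lay above all 6 other arrays for 18 of 34 member probe sets, against 1.68% of all probe sets.

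The values against Sham-Sham depended on single arrays of that group. Sham-Sham 3 was the highest Sham-Sham array for 15 of 17 synthesis genes (88.2%), a place it held for 32.7% of all genes. It was above the highest Burn-CLP array for 10 of the 17, and the share of all genes in that position was not computed. Sham-Sham 1 and Sham-Sham 2 both lay below all Sham-CLP arrays for 17 of the 17, against 17.8% of all probe sets. Without Sham-Sham 3, limma with Benjamini-Hochberg adjustment called 15 member probe sets higher in Sham-CLP than in Sham-Sham, against 1.42% of all probe sets, and 4 higher in Burn-CLP than in Sham-Sham (Ebp, Fdps, Insig1 and Msmo1), against 2.59%. In both CLP groups together 12 were called higher, against 2.83%. The 15 were Acat2, Idi1 (2 probe sets), Fdps, Fdft1, Sqle, Lss (2), Cyp51 (2), Msmo1, Hsd17b7, Ebp, Sc5d and Dhcr7. Without Sham-Sham 1 or Sham-Sham 2, 0 member probe sets were called in these comparisons. The synthesis median against Sham-Sham was 0.93 in Burn-CLP and 1.74 in Sham-CLP without Sham-Sham 3, 0.16 and 0.98 without Sham-Sham 2, and 0.29 and 1.18 without Sham-Sham 1. It stayed above 0 in each case, while in Burn-CLP its size ranged over more than 5 times. Within Burn-CLP, Burn-CLP 2 was the lowest array for 15 of 17 synthesis genes, against 33.9% of all genes. Burn-CLP 3 was the highest for 16, against 35.3%.

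**Figure D2:**
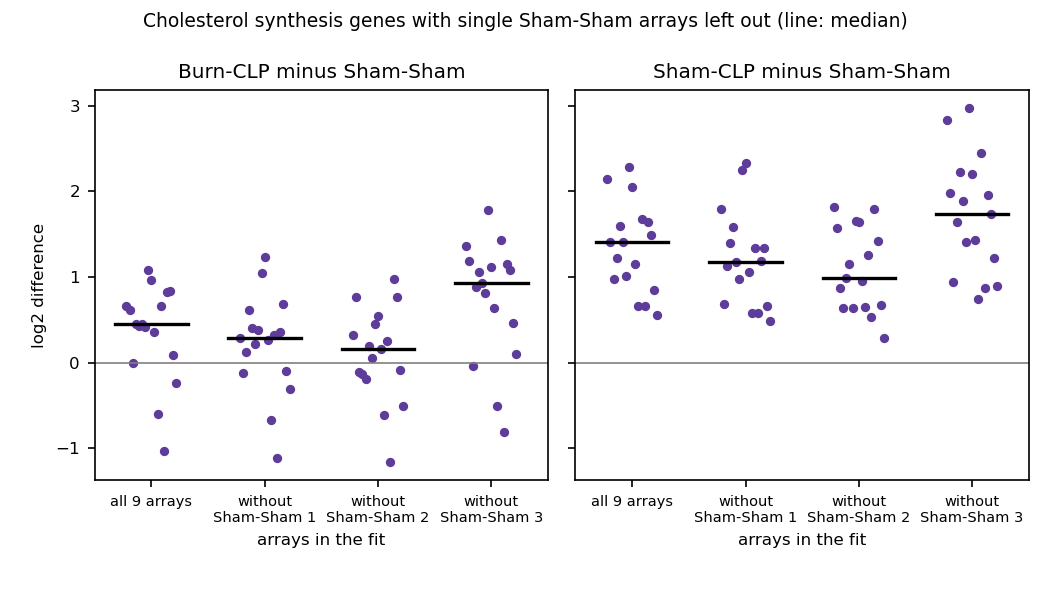
Log2 differences of the 17 synthesis genes (points) in Burn-CLP (left) and in Sham-CLP (right), each against Sham-Sham, with all 9 arrays or with 1 Sham-Sham array left out, with the line at the median. Leaving out Sham-Sham 3 gives a Sham-CLP median of 1.74, against 1.41 with all 9 arrays.

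The first steps build the isoprenoid units. In Sham-CLP against Sham-Sham, all 6 measured genes of this stretch (Acat2, Mvk, Pmvk, Mvd, Idi1 and Fdps) had an unadjusted limma p under 0.05 in the higher direction, with a median log2 difference of 1.41. Of all 9339 genes, 535 had such a p in the higher direction, and their overall median was 0.00. Burn-CLP differed from Sham-CLP by a median of -0.97, against 0.02 over all genes.

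Pmvk makes mevalonate diphosphate. Its signals were 484.5, 533.7 and 557 in Burn-CLP, 1158, 973.1 and 978.9 in Sham-CLP, and 633.8, 454.8 and 506.9 in Sham-Sham. The Sham-CLP arrays stood apart, while Burn-CLP and Sham-Sham overlapped. The limma log2 difference was 0.97 ± 0.18 (SE, adjusted p = 0.146) for Sham-CLP against Sham-Sham and -0.98 ± 0.18 (adjusted p = 0.178) for Burn-CLP against Sham-CLP.

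Fdps makes farnesyl diphosphate, the branch point towards sterols. It read 5733, 4583 and 6102 in Burn-CLP, 10244, 11113 and 10338 in Sham-CLP, and 2907, 2792 and 7781 in Sham-Sham. The Sham-CLP values were close together and above the other 6, and Sham-Sham 3 exceeded every Burn-CLP array. The Sham-CLP difference from Sham-Sham was 1.41 ± 0.35 (limma, adjusted p = 0.276), or 1.89 without Sham-Sham 3 (adjusted p = 0.0077). Without Sham-Sham 1 or Sham-Sham 2 the difference was 1.18 or 1.15 (limma, adjusted p = 0.492 or 0.406).

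Acat2 is the cytosolic thiolase that joins 2 acetyl-CoA. Its signals were 479.2, 320.8 and 891.3 in Burn-CLP, 1627, 1574 and 1173 in Sham-CLP, and 196.1, 204.5 and 871.5 in Sham-Sham. Sham-CLP was above both other groups, and Sham-Sham 3 was more than 4 times its 2 group mates. The log2 difference was 2.14 ± 0.56 for Sham-CLP against Sham-Sham (limma, adjusted p = 0.292), or 2.83 without Sham-Sham 3 (adjusted p = 0.0135). In Burn-CLP it was 0.66 ± 0.56 (adjusted p = 0.532), or 1.36 without that array (adjusted p = 0.0731). For Sham-CLP, leaving out Sham-Sham 1 or Sham-Sham 2 instead gave 1.80 or 1.81 (limma, adjusted p = 0.504 or 0.415).

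Idi1, the isopentenyl diphosphate isomerase, read 1605, 858.8 and 1944 in Burn-CLP, 3483, 3538 and 2490 in Sham-CLP, and 1003, 441.9 and 2512 in Sham-Sham. Here Sham-Sham 3 exceeded the lowest Sham-CLP array. The difference was 1.59 ± 0.55 (limma, adjusted p = 0.351) and 1.82 ± 0.38 (adjusted p = 0.218) for its 2 probe sets, or 2.23 and 2.26 without Sham-Sham 3. Mvk, which phosphorylates mevalonate, differed by 1.41 and 0.79 for its 2 tested probe sets, and Mvd, which decarboxylates mevalonate diphosphate, by 1.22, with adjusted p values of 0.388, 0.36 and 0.363.

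The later steps make squalene and close and trim the sterol ring. In Sham-CLP against Sham-Sham, 9 of the 11 measured genes had an unadjusted limma p under 0.05 in the higher direction, against 535 of all 9339 genes. The median log2 difference was 1.15, against 0.00 over all genes. Burn-CLP differed from Sham-CLP by a median of -0.82, against 0.02 over all genes.

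Ebp, the sterol isomerase that shifts the ring double bond, was the member with the smallest p. Its signals were 4035, 4014 and 4487 in Burn-CLP, 6504, 6427 and 6784 in Sham-CLP, and 1872, 2100 and 3236 in Sham-Sham. The 3 groups did not overlap, in the order Sham-CLP, Burn-CLP and Sham-Sham from high to low. Mean signals were 4179 ± 267 in Burn-CLP, 6572 ± 188 in Sham-CLP and 2402 ± 731 in Sham-Sham (SD, n = 3 each). Across both CLP groups Ebp rose 2.24-fold against Sham-Sham (log2 1.17 ± 0.18, limma, adjusted p = 0.0406). By group the log2 difference from Sham-Sham was 1.49 ± 0.21 in Sham-CLP (limma, adjusted p = 0.0553) and 0.84 ± 0.21 in Burn-CLP (adjusted p = 0.0914). The call was close to the threshold: leaving out 1 array gave adjusted p values from 0.00538, without Sham-Sham 3, to 0.132, without Sham-Sham 2, and 8 of the 9 were above 0.05.

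**Figure D3:**
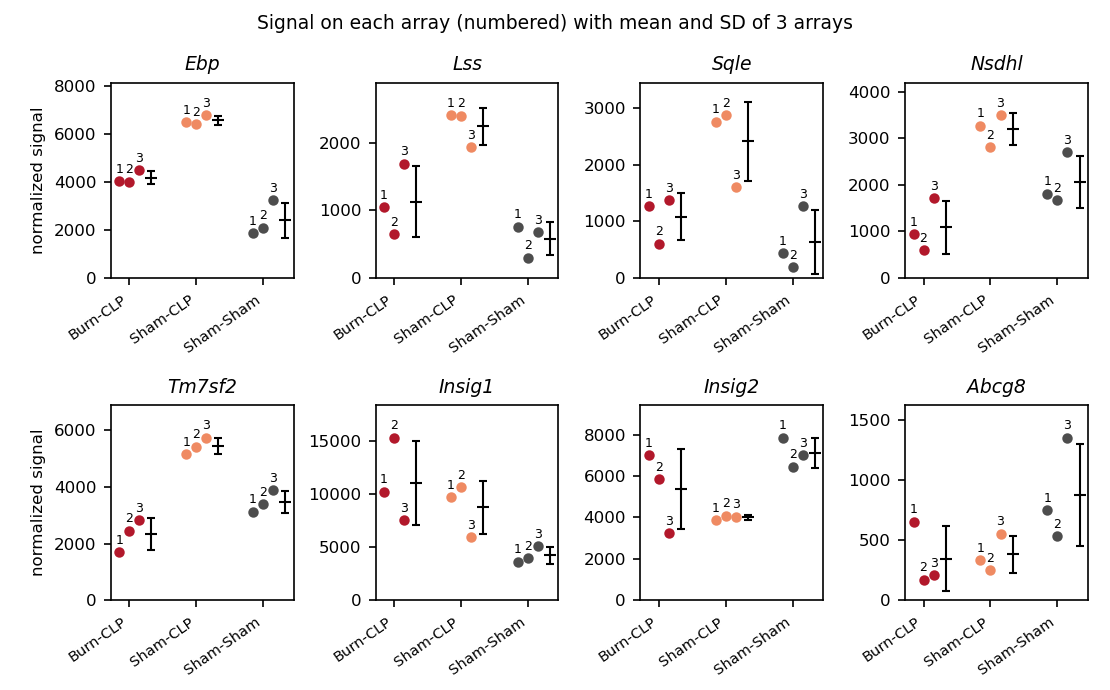
Normalized signal in each array (points) with the mean ± SD of each group (n = 3) for 8 genes, Burn-CLP, Sham-CLP and Sham-Sham from left to right. Ebp arrays of the 3 groups do not overlap, and the Lss and Sqle arrays of Sham-CLP lie above those of Sham-Sham.

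Lss, lanosterol synthase, closes the ring. Its brighter probe set read 1045, 648.7 and 1688 in Burn-CLP, 2402, 2395 and 1928 in Sham-CLP, and 759.8, 302.4 and 673.9 in Sham-Sham. Sham-CLP stood above both other groups, and here Sham-Sham 3 was not the highest of its group. The log2 difference was 2.05 ± 0.40 for Sham-CLP against Sham-Sham (limma, adjusted p = 0.178). On the dimmer probe set Sham-Sham 2, Sham-Sham 3 and Burn-CLP 2 lay at the floor, the lowest signal kept, so its difference depends on the floor chosen. It was 3.80 (limma, adjusted p = 0.0905) with the floor used here, 4.57 (0.164) with a floor at the 10th percentile and 3.47 (0.087) with an offset of 50 in its place.

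Tm7sf2, a sterol reductase that works after ring closure, read 1710, 2460 and 2839 in Burn-CLP, 5169, 5429 and 5745 in Sham-CLP, and 3129, 3395 and 3886 in Sham-Sham. The 3 groups did not overlap, with Burn-CLP lowest. The log2 difference was -1.25 ± 0.21 for Burn-CLP against Sham-CLP (limma, adjusted p = 0.169) and -0.60 ± 0.21 for Burn-CLP against Sham-Sham (adjusted p = 0.174).

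Nsdhl, a dehydrogenase in the removal of the ring methyl groups, read 940, 597.6 and 1721 in Burn-CLP, 3269, 2815 and 3492 in Sham-CLP, and 1809, 1677 and 2703 in Sham-Sham. Sham-CLP was highest and Burn-CLP 3 overlapped the lower Sham-Sham arrays. The log2 difference was -1.69 ± 0.35 for Burn-CLP against Sham-CLP (limma, adjusted p = 0.23) and -1.03 ± 0.35 for Burn-CLP against Sham-Sham (adjusted p = 0.166).

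Sqle, squalene epoxidase, had the largest Sham-CLP difference of the brighter probe sets, 2.28 ± 0.60 (limma, adjusted p = 0.292), or 2.98 without Sham-Sham 3 (adjusted p = 0.0204). Its signals were 1267, 605.4 and 1371 in Burn-CLP, 2762, 2871 and 1603 in Sham-CLP, and 441.7, 196.5 and 1266 in Sham-Sham. The Sham-Sham arrays spread more than 6 times between lowest and highest. Without Sham-Sham 1 or Sham-Sham 2 the Sqle difference was 2.25 or 1.65 (limma, adjusted p = 0.492 or 0.401). Hsd17b7, a ketosteroid reductase of the same stretch, differed by 1.64 ± 0.39, and Msmo1, the methylsterol oxidase, by 1.67 ± 0.55, with adjusted p values of 0.254 and 0.337. Without Sham-Sham 3 these were 1.96 and 2.45 (adjusted p = 0.0397 and 0.011), and neither gene was called without Sham-Sham 1 or Sham-Sham 2. Fdft1, squalene synthase, and Cyp51, the demethylase of lanosterol, differed by 1.01 ± 0.36 and 1.15 ± 0.27 on their brighter probe sets (adjusted p = 0.363 and 0.249). Among the brighter probe sets, Dhcr7, which makes the last step to cholesterol in 1 branch, had the smallest difference, 0.56 ± 0.28 (adjusted p = 0.461), or 0.90 without Sham-Sham 3 (adjusted p = 0.0498). Leaving out Sham-Sham 1 or Sham-Sham 2 instead did not call Dhcr7.

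Sc5d, the lathosterol desaturase, had probe sets that disagreed in sign when Burn-CLP, or both CLP groups together, were compared with Sham-Sham. The brighter read 3605, 2532 and 4098 in Burn-CLP, 5675, 5832 and 5419 in Sham-CLP, and 2419, 2452 and 5247 in Sham-Sham. The dimmer read 1617, 842.5 and 1085 in Burn-CLP, 2200, 2149 and 1704 in Sham-CLP, and 1764, 1245 and 1993 in Sham-Sham. Against Sham-Sham, Burn-CLP differed by 0.09 ± 0.31 on the first and -0.52 ± 0.27 on the second (limma, adjusted p = 0.898 and 0.312). Both probe sets were higher in Sham-CLP than in Sham-Sham, by 0.84 and 0.29 (limma, adjusted p = 0.372 and 0.673). Both were lower in Burn-CLP than in Sham-CLP, by -0.75 and -0.82 on the log2 scale (limma, adjusted p = 0.513 and 0.437).

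**Figure D4:**
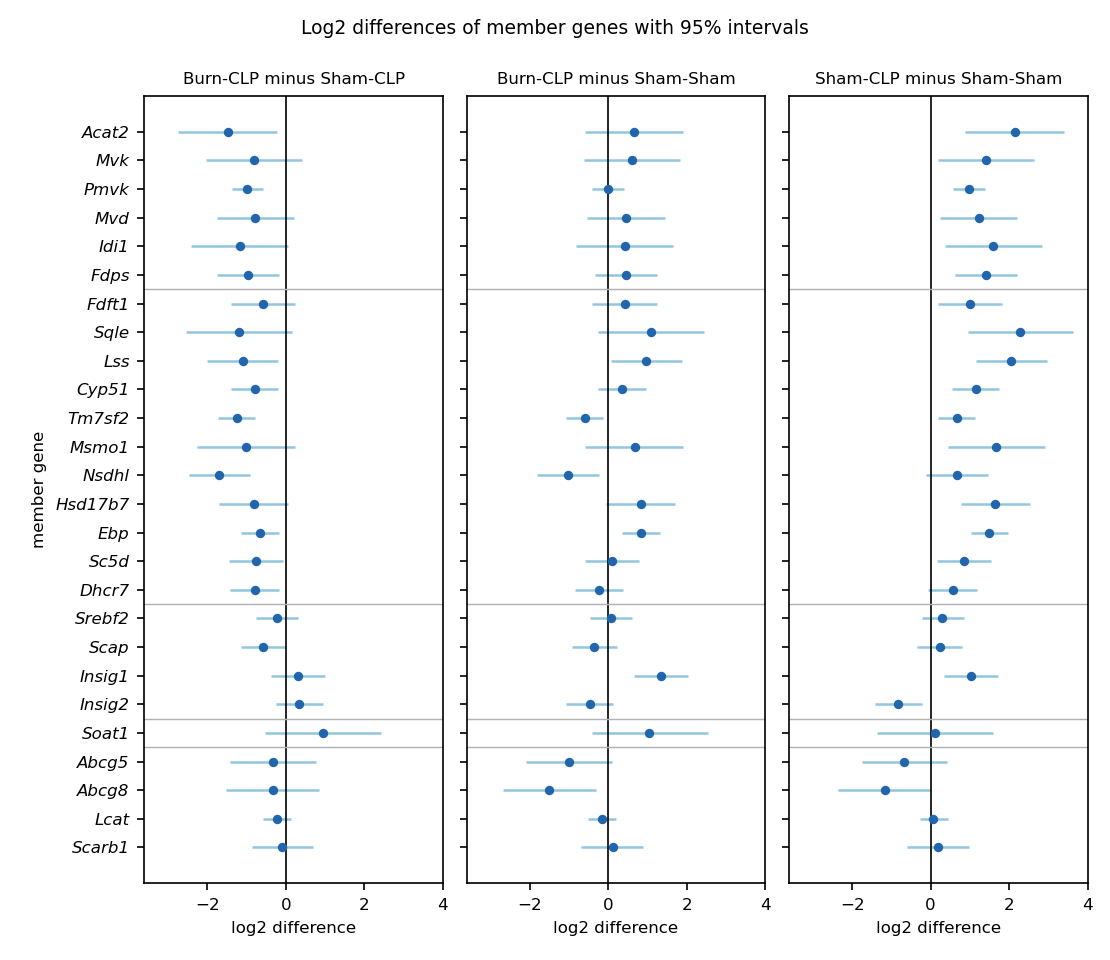
Log2 differences with 95% intervals from limma for each gene in the 3 pairs of groups, grouped by role. The intervals of the synthesis genes lie mostly above 0 for Sham-CLP against Sham-Sham and below 0 for Burn-CLP against Sham-CLP, while those of the sensing, storage and efflux genes mostly cross 0.

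The 4 sensing genes had median log2 differences of 0.26 in Sham-CLP and -0.14 in Burn-CLP, each against Sham-Sham. Srebf2 read 1239, 1121 and 1579 in Burn-CLP, 1621, 1737 and 1253 in Sham-CLP, and 1127, 1006 and 1653 in Sham-Sham, with overlapping groups. Its difference for Sham-CLP against Sham-Sham was 0.30 ± 0.24 (limma, adjusted p = 0.621). Scap read 896.8, 667.9 and 837.9 in Burn-CLP, 992.4, 1024 and 1635 in Sham-CLP, and 775, 1078 and 1246 in Sham-Sham, and its difference was 0.23 ± 0.26 (limma, adjusted p = 0.744). Of the 4 sensing genes, 1, Scap, had all Burn-CLP arrays below all Sham-CLP arrays, against 9.22% of all probe sets. The Scap difference for Burn-CLP against Sham-CLP was -0.58 ± 0.26 (limma, adjusted p = 0.549).

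Insig1, whose protein retains SCAP and which is itself an SREBP target, read 10244, 15350 and 7571 in Burn-CLP, 9707, 10676 and 5945 in Sham-CLP, and 3636, 3953 and 5137 in Sham-Sham. All 6 CLP arrays were above all Sham-Sham arrays, a position held by 3.55% of all probe sets. The log2 difference from Sham-Sham was 1.34 ± 0.31 in Burn-CLP (limma, adjusted p = 0.0734) and 1.02 ± 0.31 in Sham-CLP (adjusted p = 0.311). Burn-CLP exceeded Sham-CLP by 0.32 (95% interval -0.37 to 1.00), and this interval includes 0.

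Insig2, the second retaining protein, read 7021, 5859 and 3234 in Burn-CLP, 3861, 4091 and 4043 in Sham-CLP, and 7855, 6443 and 7000 in Sham-Sham. The 3 Sham-CLP arrays were below the Sham-Sham arrays and Burn-CLP overlapped both groups. The difference was -0.82 ± 0.27 for Sham-CLP against Sham-Sham (limma, adjusted p = 0.328).

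Storage and efflux genes also showed no called difference. Soat1, which esterifies cholesterol, was near the floor signal of 64.31: its brighter probe set read the floor, 580.7 and 97.64 in Burn-CLP, 79.64, 93.81 and 68.11 in Sham-CLP, and 93.89, the floor and 67.52 in Sham-Sham, so its Burn-CLP value rests on 1 array.

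Abcg5 and Abcg8 form the sterol exporter. Abcg8 read 656.1, 172.7 and 208.6 in Burn-CLP, 336.1, 253.7 and 555.6 in Sham-CLP, and 750.4, 531.6 and 1356 in Sham-Sham. Of the 6 CLP arrays, 4 lay below every Sham-Sham array, and the groups overlapped. The difference was -1.51 ± 0.53 in Burn-CLP and -1.17 ± 0.53 in Sham-CLP against Sham-Sham (limma, adjusted p = 0.175 and 0.432), and -1.13 and -0.80 without Sham-Sham 3. Abcg5 read 1305, 329.4 and 638.5 in Burn-CLP, 674.2, 728.3 and 1107 in Sham-CLP, and 988.6, 1012 and 2194 in Sham-Sham, with differences from Sham-Sham of -1.0 ± 0.49 in Burn-CLP and -0.67 ± 0.49 in Sham-CLP (adjusted p = 0.285 and 0.595). Sham-Sham 3 was the highest Abcg5 array, and without it these were -0.62 and -0.29.

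Lcat, the plasma enzyme that esterifies cholesterol on lipoproteins, read 11024, 8908 and 10780 in Burn-CLP, 11770, 12511 and 11521 in Sham-CLP, and 10759, 11521 and 11770 in Sham-Sham. The difference from Sham-Sham was -0.15 ± 0.16 in Burn-CLP and 0.07 ± 0.16 in Sham-CLP (limma, adjusted p = 0.608 and 0.877). Scarb1, the receptor for high-density lipoprotein, had probe sets that disagreed in sign: against Sham-Sham they gave 0.11 ± 0.35 and -0.53 ± 0.27 in Burn-CLP, and 0.19 ± 0.35 and -0.10 ± 0.27 in Sham-CLP. The brighter read 690.4, 818.2 and 992.8 in Burn-CLP, 786.1, 758.8 and 1131 in Sham-CLP, and 420.5, 1005 and 1066 in Sham-Sham. Without Sham-Sham 1, the lowest of these, its difference from Sham-Sham was -0.33 in Burn-CLP and -0.24 in Sham-CLP. The dimmer read 435.4, 671.5 and 619.6 in Burn-CLP, 652.8, 614.1 and 1095 in Sham-CLP, and 661.2, 908.7 and 901.6 in Sham-Sham.

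Of 31 other genes of sterol handling, 20 were measured, and 1, Lipc, was called. Lipc is hepatic lipase, which trims lipoproteins. It read 1547, 1363 and 1962 in Burn-CLP, 2153, 3185 and 4545 in Sham-CLP, and 4857, 4938 and 5126 in Sham-Sham, with no overlap of any pair of groups. Lipc fell in Burn-CLP against Sham-Sham by 1.63 on the log2 scale (SE 0.27, limma, adjusted p = 0.0351), a comparison in which 0.746% of all probe sets were called. The others with the smallest p in both CLP groups against Sham-Sham were not called. Vldlr, a lipoprotein receptor, differed by -1.16 (limma, adjusted p = 0.115) on its brighter probe set and by 0.35 (0.428) on another. For the dimmer one, Sham-Sham 1, 2 and 3 each had the floor value, so a negative difference was not possible. The opposite signs of the Vldlr probe sets therefore cannot be read as a disagreement. Tmem97, a sterol-regulated membrane protein, differed by 0.54 (0.205), Nceh1, a cholesteryl ester hydrolase, by -0.65 (0.231) and Nr1h2, an oxysterol receptor, by -0.33 (0.239). Abcg1, a sterol transporter, differed by 0.41 (0.244), -0.40 (0.326) and 0.00 (0.989) on its 3 probe sets, which disagreed in sign. The 20 genes had a median of -0.11 in Sham-CLP against Sham-Sham.

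Cell markers were read beside these results. Markers of hepatocytes, 8 of 8 measured, summed to 154028 to 160756 in Burn-CLP, 149887 to 156942 in Sham-CLP and 140836 to 147628 in Sham-Sham, with every CLP sum above every Sham-Sham sum. Markers of macrophages, 6 of 9 measured, summed to 8609 to 12491 in Burn-CLP, 7612 to 9716 in Sham-CLP and 7753 to 8308 in Sham-Sham. Stellate cell and fibroblast markers, 7 of 7 measured, summed to 4315 to 5785 in Burn-CLP, 4591 to 6637 in Sham-CLP and 6463 to 7132 in Sham-Sham. Markers of neutrophils, 4 of 8 measured, summed to 599.7 to 1484 in Burn-CLP, 507.7 to 684.2 in Sham-CLP and 425.7 to 679.1 in Sham-Sham. Of these, 1 was called in Burn-CLP against Sham-Sham, where 0.746% of all probe sets were called. In both CLP groups against Sham-Sham 1 was called, against 0.355%. No marker of the other lists was called. Markers of blood, 3 of 5 measured, summed to 9806 to 11820 in Burn-CLP, 11334 to 12517 in Sham-CLP and 12602 to 15826 in Sham-Sham, with every CLP sum below every Sham-Sham sum. Endothelial markers, 4 of 7 measured, summed to 1570 to 2608 in Burn-CLP, 1561 to 2146 in Sham-CLP and 2146 to 2456 in Sham-Sham. Lymphocyte markers, 8 of 9 measured, summed to 1141 to 1275 in Burn-CLP, 1003 to 1045 in Sham-CLP and 1068 to 1449 in Sham-Sham. Bile duct markers, 4 of 5 measured, summed to 836.4 to 1151 in Burn-CLP, 806.5 to 904.1 in Sham-CLP and 904.1 to 1193 in Sham-Sham. A sum weighs bright markers most, and no share over other lists was computed. Median log2 differences in Sham-CLP and Burn-CLP against Sham-Sham were 0.10 and 0.22 for hepatocytes and -0.26 and -0.42 for blood. They were 0.15 and 0.33 for macrophages, -0.62 and -0.44 for stellate cells and fibroblasts and -0.03 and 0.48 for neutrophils. Endothelial markers gave -0.17 and 0.56, lymphocyte markers -0.15 and -0.20, and bile duct markers -0.26 and 0.10. No marker measured was at the floor on all 9 arrays, and the part of these cell markers in the results was not tested.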

How the data were processed

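The authors deposited linear intensity values for each probe set on 9 arrays. The steps from scan to value are not given in the sources used here, although the trimmed mean of 500.1 to 500.2 on each array shows a common scaling. Deposited medians ran from 205 to 268.1, from 89.88% to 117.5% of their mean, beyond the 10% tolerance for keeping that scaling, so arrays were quantile normalized. Signals under the 20th percentile (64.31) were raised to it as a floor before taking log2. Tests covered probe sets with 3 or more of 9 arrays above the floor, and 57 control probe sets were left out. Groups were compared with limma 3.58.1 in R 4.3.3, in 1 fit over all 9 arrays (lmFit, eBayes), with Benjamini-Hochberg adjustment over the 13535 probe sets. The probe set with the highest mean stands for a gene, and 3 of the 37 member probe sets, of Mvk, Srebf2 and Soat1, were too dim to test. No exact permutation test was run, since 3 arrays against 3 allow no two-sided p below 0.1.

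Gene symbols came from the platform annotation, updated to GRCr8 RefSeq. Signals in every array are given for up to 4 members a role with the smallest F test p and for members whose probe sets disagree in sign; Sqle was added after its values were seen. Up to 6 other pathway genes are named by their p in both CLP groups together. Members and lists were chosen with earlier results of these data known. The steps were tested on simulated data. The 18 alternatives are given in the closing section.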

Additional observations from a re-analysis of the deposited data

How the results depend on the processing

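With 3 arrays a group and adjustment over 13535 probe sets, most single-gene calls are near or past the limit of these data. Of 18 alternatives, 9 left out 1 array each and 9 changed another choice. The medians of the members kept their direction and stayed within 0.34 of the values given, the SD of the member mean between arrays of a group, except in Burn-CLP against Sham-Sham, where leaving out 1 array gave medians from -0.01, without Sham-Sham 2, to 0.73, without Sham-Sham 3. Member probe sets called in Sham-CLP against Sham-Sham numbered 1 with probe sets above the floor on all 9 arrays, 1 with an offset of 50 and no floor, 1 with the trend and robust settings of eBayes, 9 with array quality weights and 1 with only the 2 groups in the fit, and 0 to 15 with 1 array left out. For Burn-CLP against Sham-Sham they numbered 2 with trend and robust settings, 1 with array weights and 0 to 4 with 1 array left out. For Burn-CLP against Sham-CLP they were 1 with trend and robust settings, 3 with array weights and 0 to 1 with 1 array left out. For both CLP groups against Sham-Sham they were 0 without a filter on dim probe sets, 0 with the floor at the 10th percentile, 3 with trend and robust settings, 3 with array weights and 0 to 12 with 1 array left out. The F test called 1 with probe sets above the floor on all 9 arrays, 1 with the offset, 4 with trend and robust settings, 10 with array weights and 0 to 9 with 1 array left out. The cause was not tested. The largest counts came without Sham-Sham 3 and, for Burn-CLP against Sham-CLP and the F test, with array weights. Among these alternatives, the share of all probe sets called is given only without Sham-Sham 3, for the higher direction against Sham-Sham. The other counts have no such share beside them, so they say nothing about the members as against all probe sets. Same-numbered arrays did not deviate together over the tested probe sets (correlations of -0.0261 to 0.08061), so the numbers were not used to pair them. This cannot exclude a pairing that is weak or limited to few genes, and the labels do not say what the numbers stand for. With the replicate number as a block, both CLP groups against Sham-Sham gave 0 called members. The count of synthesis genes above Sham-Sham in Sham-CLP without overlap was 13 of 17 with the deposited scaling too, an alternative chosen after seeing the data, and 17 of 17 without Sham-Sham 3, where 17.8% of all probe sets did so. With 1 Sham-Sham array left out, also chosen after seeing the data, the Burn-CLP mean was closer to Sham-Sham for 9 to 15 of the 17 synthesis genes, between the other groups for 10 to 14 and below Sham-Sham for 3 to 7. The shares of all genes with these orders were not computed. The sign turned under at least 1 alternative for 3 of 26 genes in Sham-CLP against Sham-Sham (0 of them synthesis genes), for 8 in Burn-CLP against Sham-Sham (6 synthesis genes, among them Mvk, 0.61 and -0.12 without Sham-Sham 1, and Mvd and Idi1, 0.45 and 0.42, and -0.14 and -0.19 without Sham-Sham 2), for 4 in Burn-CLP against Sham-CLP (0 synthesis genes) and for 6 in both CLP groups against Sham-Sham (3 synthesis genes: Tm7sf2, Nsdhl and Dhcr7).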
